A study of Mus musculus with 36 samples.

Results

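The pericentral Wnt target genes are 10 genes, Glul, Axin2, Lgr5, Rnf43, Znrf3, Tbx3, Oat, Rhbg, Slc1a2 and Lect2, that were found by symbol in the count tables, 10 of the 21955 symbols listed. The tables came from RNA of regenerating liver of C57BL/6JN mice, an inbred laboratory strain, at 2 ages: young mice of 4 months and old mice of 18 months. Livers were taken at 6 time points labelled before, 48, 72, 96, 120 and 240, which gave 12 groups of 3 biological replicates and 36 libraries. The labels give no unit for the time points, do not say how regeneration was induced, name no allele or drug, and do not give the sex of the animals or say whether animals were pooled, and old mice are the group compared with young.

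In the liver lobule, blood runs from the portal vein to the central vein, and hepatocytes along this path divide the metabolic work between them. Endothelial cells of the central vein release Wnt and R-spondin proteins, which stabilise beta-catenin in the nearest hepatocytes and so keep on the pericentral programme of glutamine synthesis and drug metabolism. Some targets of the pathway act back on it: Axin2 is a scaffold of the complex that destroys beta-catenin, Rnf43 and Znrf3 are membrane ubiquitin ligases that remove Wnt receptors, and Lgr5 is an R-spondin receptor that restrains those ligases. Among the others, Glul is glutamine synthetase, Oat is ornithine aminotransferase, Slc1a2 is a glutamate transporter, Rhbg is an ammonium transporter, Lect2 is a secreted hepatocyte protein and Tbx3 is a T-box transcription factor.

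Sequences upstream of Slc1a2 and Lect2 are shown because, among the members with an entry in the RefSeq promoter table (build GRCm38.p6), these were the genes with a match to the core of the motif bound by TCF/LEF factors, the DNA-binding partners of beta-catenin. The letters searched were CTTTGA on either strand, which reads TCAAAG on the other, in the 250 bases before each RefSeq start. The table matched 6 of the 10 members with 7 promoters, and the promoters of Glul, Oat, Axin2 and Rnf43 held no match. Lgr5, Znrf3, Tbx3 and Rhbg had no entry. Of all 32851 promoters in the table, 13.8% held CTTTGA, and 3.21% held the longer CTTTGAT, which contains it. The Slc1a2 window lies at chr2:102706188-102706437 on the plus strand, inside the interval annotated for the gene, and has matches that begin 206 and 77 bases before the start. The Lect2 window lies at chr13:56548539-56548788 on the minus strand and has a match 31 bases before the start. Each window holds 1 match to the longer form. Both are printed 5′ to 3′ with the matches in capitals. A match describes the letters and shows no binding.
Slc1a2: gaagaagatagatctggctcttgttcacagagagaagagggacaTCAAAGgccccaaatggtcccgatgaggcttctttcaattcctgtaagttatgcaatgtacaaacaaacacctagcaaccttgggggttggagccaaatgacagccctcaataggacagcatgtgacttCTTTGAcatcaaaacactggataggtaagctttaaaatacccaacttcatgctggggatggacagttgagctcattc
Lect2: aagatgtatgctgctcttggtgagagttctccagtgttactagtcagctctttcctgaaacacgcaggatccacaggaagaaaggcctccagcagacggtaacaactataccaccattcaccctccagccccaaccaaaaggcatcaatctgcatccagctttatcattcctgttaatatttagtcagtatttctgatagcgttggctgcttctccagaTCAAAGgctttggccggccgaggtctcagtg

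All 10 genes passed the filter on low counts, which kept 13436 genes. Library totals ran from 2328233 to 6034446 counts, with a median of 4439170. Values below are CPM, the usual depth-scaled count, with TMM factors, and differences are log2 fold changes with their standard errors (SE) from edgeR's quasi-likelihood test, called at an adjusted p under 0.05 over all genes tested. In the main fit each p-value weighs a difference against the spread between libraries within groups, estimated over all 12 groups together. Summed levels of 9 hepatocyte markers lay between 35900 and 60800 CPM, with 0 of the 9 at 0 throughout any group, which goes with the labelled tissue. Transcripts of 4 Y-linked genes were present in 12 libraries, 1 in each group, at 180 to 309 CPM, and were at most 0.211 CPM in the other 24. Of the listed symbols, 1700 were at 0 in old before replicate 1 and 3646 in young before replicate 3, against 3916 to 6882 in the other 34 libraries.

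The 10 genes spanned a wide range of levels. Per kilobase of exon (GENCODE M21, build GRCm38), the median level over the 36 libraries was 325 CPM per kb for Glul (chr1:153899944-153909723, plus strand) and 276 for Oat (chr7:132557478-132576398, minus strand). Lect2 followed at 65.3 CPM per kb (chr13:56542464-56548502, minus strand) and Slc1a2 at 37.7 (chr2:102658659-102790784, plus strand). The pathway's own regulators and Tbx3 lay lower: Tbx3 at 12.1 CPM per kb (chr5:119670669-119684724), Rnf43 at 9.73 (chr11:87662722-87735539), Znrf3 at 5.95 (chr11:5276324-5444847), Axin2 at 3.74 (chr11:108920349-108950783) and Lgr5 at 1.51 (chr10:115450311-115587780). Rhbg stood at 1.93 CPM per kb (chr3:88242874-88254709), and its counts of 3 to 50 per library limit the precision of its values. Exons of Glul, Axin2, Tbx3 and Slc1a2 overlap a gene on the opposite strand, and those of Rhbg and Glul another on the same strand. The strand setting of the counting is not given in the sources used here, so reads of such partners cannot be told apart. For Glul the opposite partner, Teddm2, was itself listed, with at most 7 counts.

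**Figure D1:**
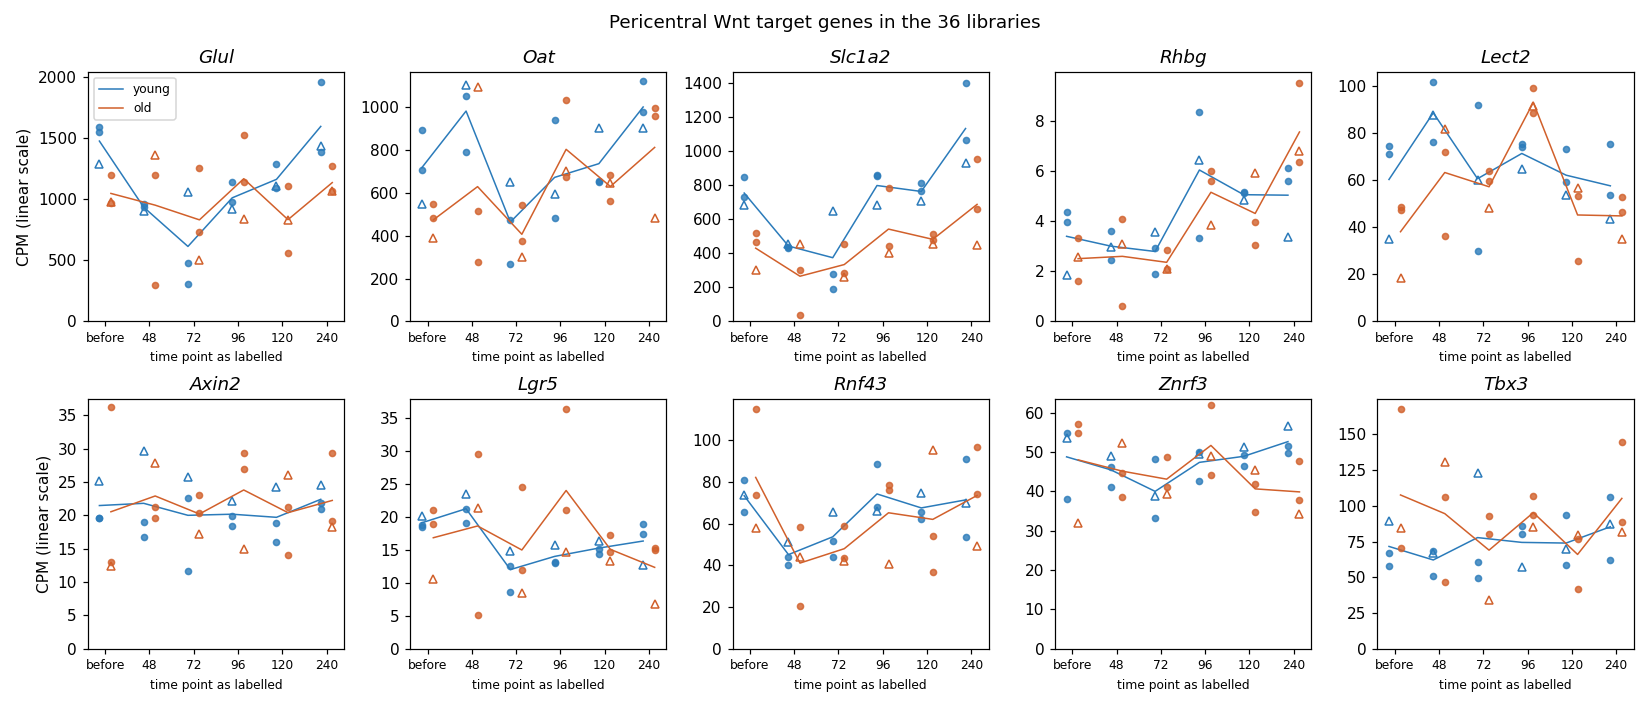
Level of each of the 10 genes in every library, in CPM on linear axes from 0, by time point as labelled, with young in blue and old in orange. Lines join the means of 3 libraries, and open triangles mark the libraries with Y-linked transcripts. Glul and Slc1a2 have their lowest young means at 72, where 1 library lies above the other 2, while the mean of Axin2 stays between 19.7 and 23.8 CPM.

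Glul was lower in young mice at 72 than before, and no other member was called there. Glutamine synthetase, which joins ammonia to glutamate, stood at 1290, 1550 and 1590 CPM before regeneration in young mice. It stood at 965, 939 and 903 CPM at 48 and at 303, 479 and 1060 CPM at 72. Both later groups lay below all the before libraries, and at 72 a single library, replicate 3, lay far above the other 2. Glul fell by 1.26 ± 0.40 (SE) on the log2 scale at 72 (adjusted p = 0.0286, edgeR's quasi-likelihood test, n = 3 per group), lower in 3 of 3 libraries. This was 1 of the 10 members, a share below the 17.4% of all genes called in that comparison. At 48 the difference of -0.66 ± 0.39 missed the threshold (adjusted p = 0.252 by the same edgeR test). The spread of each gene was estimated over all 12 groups together. In bulk tissue, fewer cells of a type and less RNA per cell cannot be told apart.

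The Glul call at 72 was lost on leaving out single libraries of either group. Without young 72 replicate 1 the difference was -0.94 (adjusted p = 0.165) and without young 72 replicate 2 it was -1.11 (adjusted p = 0.123), in edgeR. The difference was nearly the same as with all libraries without young before replicate 2 (-1.23, edgeR adjusted p = 0.0666) and without young before replicate 3 (-1.20, adjusted p = 0.0771). Between the libraries with Y-linked transcripts, 1 in each group, the difference was -0.28, and between the 2 per group without them it was -2.04. The summed hepatocyte markers at 72 ranged from 36200 to 56200 CPM, against 55700 to 60800 before, and 12 cell division genes summed to 597 to 2300 CPM against 65.7 to 96.9. Markers of stellate cells and fibroblasts summed to 343 to 843 CPM against 314 to 449, and 3 of 7 tested rose, among them Col1a1 (3.79 ± 0.70, edgeR adjusted p = 0.000854) and Col3a1 (2.63 ± 0.53, adjusted p = 0.00161), both collagen genes. Cholangiocyte markers summed to 41.2 to 286 CPM against 41.8 to 50.6, and 2 of 3 tested rose, the keratin gene Krt19 (2.36 ± 0.71, edgeR adjusted p = 0.0205) and Spp1, which encodes osteopontin (1.86 ± 0.62, adjusted p = 0.0403). Sinusoidal endothelial markers summed to 309 to 369 CPM against 469 to 520, and 4 of 8 fell. Of all genes tested, 17.4% were called in this comparison. No marker of these lists was at 0 throughout either group. The part of these shifts in the Glul difference was not tested.

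After 72 the Glul level in young mice was 1010 ± 115 CPM (SD, n = 3) at 96, 1160 ± 111 at 120 and 1600 ± 315 at 240. The means in old mice were 1050 ± 133 CPM for the before group, 951 ± 572 and 833 ± 390 for 48 and 72, 1170 ± 348 and 833 ± 274 for 96 and 120, and 1140 ± 118 for 240. The spread of these groups is as wide as the differences between their means, and no old time point was called against before. Old libraries lay below all young ones before (967 to 1200 against 1290 to 1590 CPM) and at 240 (1070 to 1270 against 1390 to 1960). At the other time points the ages overlapped, and none of these differences was called. The age difference in the change from before to 72 was 0.93 ± 0.56 on the log2 scale (edgeR adjusted p = 0.99998). The decrease of Glul in young mice was therefore not shown to differ from the change in old mice.

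Slc1a2, which carries glutamate into the cell, had the widest range of the 10 genes, with the highest group mean 4.25-fold the lowest. The lowest mean, 266 CPM in old mice at 48, includes replicate 2 at 35.0 CPM beside 458 and 305, so this ratio leans on a single library. In young mice Slc1a2 stood at 687, 847 and 732 CPM before, 433, 440 and 458 at 48, and 191, 282 and 652 at 72. All libraries of both later groups lay below all those from before. The fitted differences were -0.77 ± 0.49 at 48 (adjusted p = 0.282) and -1.01 ± 0.49 at 72 (adjusted p = 0.159) in edgeR, neither of which was called. At 72 the gene was called without young 72 replicate 3 (-1.65, edgeR adjusted p = 0.0334) and without old 48 replicate 2 (edgeR adjusted p = 0.0292). The latter library is in neither group compared. Each fit with a library left out repeated the filter on low counts, the scaling and the estimate of the spread. At 240 young mice had 935, 1070 and 1400 CPM, all above the before libraries, with a difference of 0.59 ± 0.49 that was not called.

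At 48 in young mice 0 of the 10 members were called by edgeR or by DESeq2, and 1, Rnf43, had an unadjusted p under 0.05, against 21.9% of all genes called. With only the 6 libraries of that comparison in the fit, 3 members were called: Glul at -0.65 (adjusted p = 0.00708), Rnf43 at -0.70 (adjusted p = 0.00484) and Slc1a2 at -0.76 (adjusted p = 0.00212), all in edgeR. The size of the differences was nearly the same in both fits, and the estimate of the spread was not. Lect2 at 48 stood at 102, 76.3 and 88.0 CPM in young mice against 35.2, 71.4 and 74.6 before, without overlap and without a call in either fit.

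Oat, a mitochondrial enzyme that handles ornithine, stood at 1050, 790 and 1100 CPM at 48 in young mice and at 269, 472 and 648 at 72, against 549, 705 and 894 before. The groups at 48 and 72 therefore lay on opposite sides of the before mean, and each overlapped the before libraries. In old mice Oat was at 391, 548 and 480 CPM before, 700, 675 and 1030 at 96, and 482, 955 and 995 at 240. The libraries at 96 all lay above those before (0.76 ± 0.36, edgeR adjusted p = 0.209), as did those at 120 (559 to 680 CPM), and those at 240 overlapped them. In young mice the libraries at 240 (901 to 1120 CPM) also lay above all those before. Before regeneration the old libraries all lay below the young ones. None of these differences was called in the main fit. Among the 46 alternative analyses, Oat was called at 72 in young mice only in the fit of the 24 libraries without Y-linked transcripts (-1.09, edgeR adjusted p = 0.0432).

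Rhbg was measured at the edge of what the depth allows. In old mice it stood at 2.58, 3.35 and 1.6 CPM before and at 6.82, 9.53 and 6.37 at 240, so that all 3 late libraries were above all early ones. The difference was 1.57 ± 0.42 with an edgeR adjusted p of 0.16, in a comparison where 0.156% of all genes were called. It was called without old 48 replicate 2 (edgeR adjusted p = 0.0435). At 96 the old libraries, at 3.86 to 6.0 CPM, also lay above all those before (1.06 ± 0.43, edgeR adjusted p = 0.143). In young mice Rhbg was 3.40 ± 1.34 CPM before, 6.05 ± 2.56 at 96, 5.07 ± 0.17 at 120 and 5.05 ± 1.47 at 240 (SD, n = 3), and none of these was called. The young libraries at 120 (4.87 to 5.19 CPM) lay above all those before (1.87 to 4.36 CPM), and those at 96 and 240 overlapped them.

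Lect2, a protein that hepatocytes secrete, rose in old mice at 96. Its level was 18.3, 47.4 and 48.8 CPM before and 91.5, 99.5 and 88.6 at 96, and the groups did not overlap. The difference was 1.29 ± 0.37 (SE) on the log2 scale (adjusted p = 0.0333, edgeR's quasi-likelihood test), higher in 3 of 3 libraries. It was the single call among the 10 members, against 6.82% of all genes. In edgeR 3 members, Lect2, Oat and Rhbg, had an unadjusted p under 0.05 there. The age difference in the change from before to 96 was 1.04 ± 0.51 (edgeR adjusted p = 0.546), and at 96 itself the old libraries lay above the young ones, which were at 75.3, 65.0 and 74.1 CPM, without a call.

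The Lect2 call was lost when single libraries of either group were left out. Without old before replicate 1, which is the library with the fewest symbols at 0, the difference was 0.98 (edgeR adjusted p = 0.107). For the other libraries except old 96 replicate 3 the call was lost while the difference stayed about as large or larger. The difference was 1.47 without old before replicate 2 (edgeR adjusted p = 0.0586) and 1.52 without old before replicate 3 (adjusted p = 0.063). It was 1.30 without old 96 replicate 1 (edgeR adjusted p = 0.0894) and 1.26 without old 96 replicate 2 (adjusted p = 0.0995). Between the libraries with Y-linked transcripts the difference was 2.26, and between those without them it was 0.95. Summed hepatocyte markers ranged from 45900 to 55300 CPM at 96 in old mice, against 44600 to 57000 before. Central vein endothelial markers summed to 72.8 to 84.2 CPM against 31.5 to 44.0, sinusoidal markers to 329 to 375 against 406 to 582, T and B cell markers to 24.9 to 28.4 against 42.9 to 53.6, and cell division genes to 421 to 1610 against 55.9 to 130. The part of these shifts in the Lect2 difference was not tested. Later, Lect2 was 45.3 ± 16.9 CPM at 120 and 44.9 ± 9.19 at 240 in old mice (SD, n = 3). Both groups overlapped the libraries from before.

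Among the genes that act back on the pathway, Rnf43 was lower in old mice at 48. It stood at 58.0, 115 and 73.5 CPM before and at 44.2, 20.5 and 58.5 at 48, and the highest library at 48 just exceeded the lowest before. The difference was -1.0 ± 0.33 (SE) on the log2 scale (adjusted p = 0.0287, edgeR's quasi-likelihood test), and this was 1 of the 10 members against 24.1% of all genes called. In young mice the gene was at 73.9, 80.8 and 65.4 CPM before and at 40.2, 44.2 and 51.0 at 48, with no overlap (-0.70 ± 0.33, edgeR adjusted p = 0.135). The 2 ages differed by -0.14 at 48, which was not called.

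Leaving out single libraries ended the Rnf43 call. Without old 48 replicate 2, the lowest library, the difference was -0.65 (edgeR adjusted p = 0.181), and without old before replicate 2, the highest, it was -0.68 (adjusted p = 0.195). It was no smaller without old before replicate 3 (-1.05, edgeR adjusted p = 0.054) and without old 48 replicate 1 (-1.06, adjusted p = 0.0549), where the call was also lost. Between the libraries with Y-linked transcripts the log2 difference was -0.38, and between the others it was -1.38. Summed hepatocyte markers in old mice ranged from 35900 to 54800 CPM at 48, against 44600 to 57000 before, and their part in the difference was not tested.

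Axin2 and Znrf3 varied least. The highest group mean of Axin2 was 1.21-fold the lowest, with single libraries from 11.7 to 36.2 CPM, and the ratio for Znrf3 was 1.32 with libraries from 31.9 to 61.9 CPM. Neither gene was called in any of the 23 comparisons. For Znrf3 the old libraries at 240, at 34.1, 37.8 and 47.6 CPM, all lay below the young ones, at 56.6, 49.8 and 51.4, and its unadjusted p of 0.0432 there became 0.986 after adjustment in edgeR. At 120 the old libraries of Znrf3 also lay below the young ones, at 34.6 to 45.4 against 46.3 to 51.2 CPM. At the other time points the ages overlapped.

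Lgr5 in young mice stood at 20.2, 18.7 and 18.4 CPM before and at 8.60, 12.6 and 14.8 at 72. The groups did not overlap, and the difference of -0.68 ± 0.42 was not called (edgeR adjusted p = 0.282). In old mice its libraries spread from 5.06 to 36.3 CPM, the lowest at 48 and the highest at 96. Tbx3 ranged from 34.3 to 168 CPM, and its values in young and old overlapped at every time point.

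**Figure D2:**
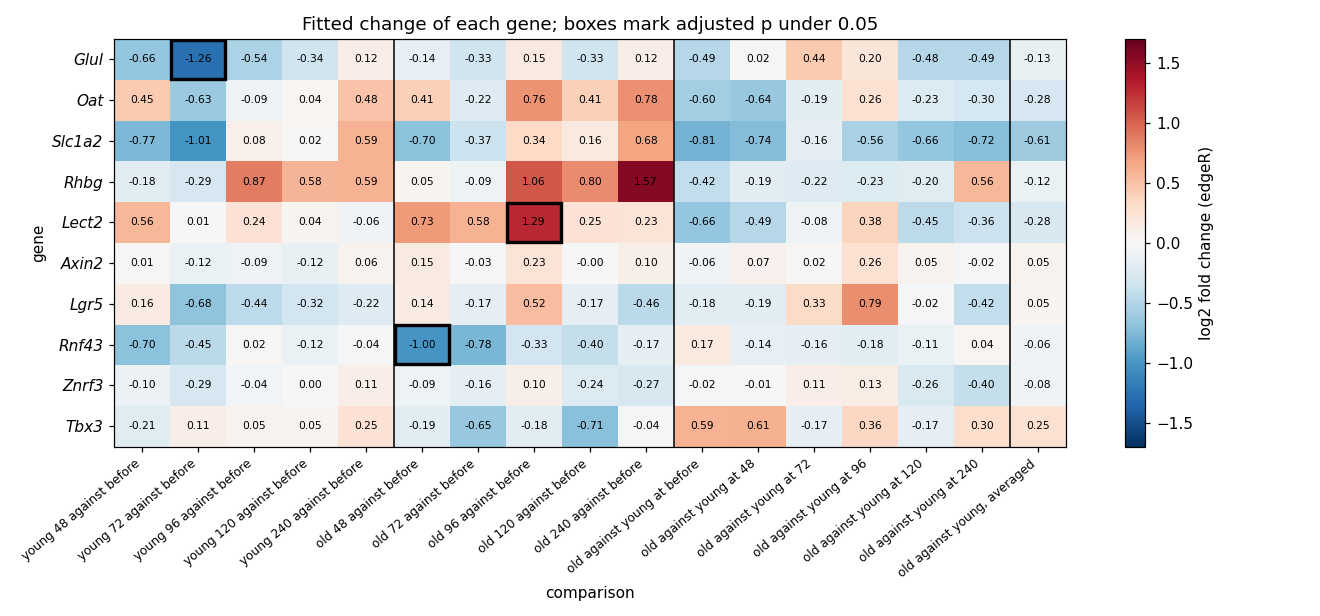
Fitted log2 fold changes of the 10 genes in 17 comparisons, with red for higher and blue for lower in the group named first, and black boxes around those with an adjusted p under 0.05 in edgeR. Boxes surround 3 values: Glul at young 72 (-1.26), Rnf43 at old 48 (-1.0) and Lect2 at old 96 (1.29), and the row of Slc1a2 is blue in every comparison of old with young.

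Over the later time points few members were called. In young mice 0 of 10 were called at 96, 120 and 240 by edgeR or DESeq2, with 1 (Rhbg), 0 and 0 at an unadjusted p under 0.05, where 1.4%, 0.581% and 0.246% of all genes were called. In old mice 0 of 10 were called at 72, 120 and 240 by either tool, with 1 (Rnf43), 0 and 2 (Oat and Rhbg) at an unadjusted p under 0.05, where 12.4%, 3.87% and 0.156% of all genes were called.

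In edgeR no member was called between old and young mice. At the single time points edgeR and DESeq2 both called 0 of the 10, with 0 at an unadjusted p under 0.05 from before to 120 and 1, Znrf3, at 240. The shares of all genes called were 0.0595% before, 11.2% at 48, 0% at 72, 0.171% at 96, 0% at 120 and 0.0149% at 240. Of the age differences in the change from before to a later time point, 0 of 10 were called by either tool at each of the 5 time points and 0 had an unadjusted p under 0.05, where 1.38%, 0%, 0.0149%, 0.00744% and 0% of all genes were called. The joint age by time test also called 0 of 10 with either tool, with 0 at an unadjusted p under 0.05, against 2.76% of all genes.

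Slc1a2 came nearest to an age difference. Its mean was lower in old mice at 6 of 6 time points: 431 ± 113 against 755 ± 82.1 CPM before, 266 ± 214 against 443 ± 12.8 at 48, 334 ± 106 against 375 ± 244 at 72, 543 ± 210 against 800 ± 99.9 at 96, 483 ± 27.2 against 765 ± 52.2 at 120, and 689 ± 253 against 1130 ± 241 at 240 (SD, n = 3). The old and young libraries did not overlap before and at 120, and overlapped at the other time points. Averaged over the time points the difference was -0.61 ± 0.20 on the log2 scale, with an unadjusted p of 0.00505 and an adjusted p of 0.0681 in edgeR's quasi-likelihood test. It was the single member with an unadjusted p under 0.05, in a comparison where 5.98% of all genes were called.

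The averaged Slc1a2 difference lay close to the threshold. DESeq2 called it (-0.61, adjusted p = 0.0248). In edgeR it was called without old 48 replicate 1 (-0.72, adjusted p = 0.0229), without old 48 replicate 2 (-0.52, adjusted p = 0.0176) and without young 72 replicate 1 (-0.66, adjusted p = 0.0441). The unweighted difference was -0.82 among the libraries with Y-linked transcripts and -0.66 among those without, each lower in old at 5 of 6 time points. For the other members the averaged difference lay between -0.28 (Oat and Lect2) and 0.25 (Tbx3).

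The library old 48 replicate 2 was the lowest of its group for all 10 genes. Slc1a2 was at 35.0 CPM there and at 458 and 305 in the other old libraries of that time, a log2 difference of -3.38 from their mean, and 0.558% of all tested genes had a difference as low or lower. Glul was at 296 CPM against 1360 and 1200, and Lgr5 at 5.06 against 21.3 and 29.5. Axin2 and Znrf3 did not set it apart, at 19.6 CPM against 27.8 and 21.3 and at 38.5 against 52.2 and 44.6, where 32.8% and 31.4% of all tested genes had a difference as low or lower. The median over the members was -1.37, beside -1.05 for the other pericentral genes, -1.23 for the periportal genes and -0.70 for the hepatocyte markers, while the median of all genes was at 0 to 2 decimals. Kupffer cell markers summed to between 97.8 and 584 CPM over the 3 libraries and central vein endothelial markers to between 65.0 and 471, against 519 to 742 and 31.5 to 44.0 in old mice before, with 0 of 6 markers of either list at 0 throughout a group. These ranges do not name the library at each end. Thbd, of the central vein list, was higher at 48 than before in old mice by 3.71 ± 0.67 with all libraries (edgeR adjusted p = 0.000372). Without replicate 2 the Thbd difference was 1.85 ± 0.47 (edgeR adjusted p = 0.00874). The part of these shifts in the values of the members was not tested.

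**Figure D3:**
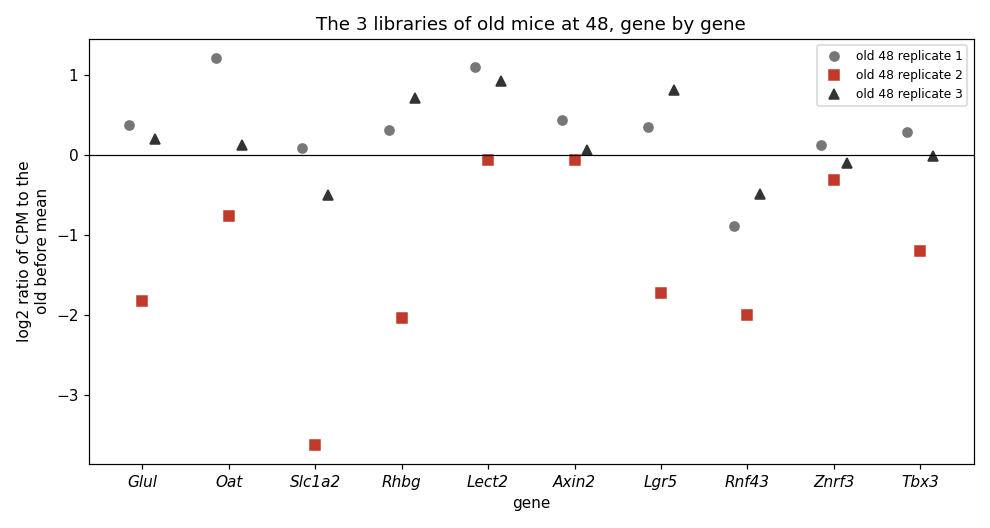
Level of each gene in the 3 old libraries at 48, as the log2 ratio of CPM to the mean of the 3 old libraries from before (line at 0). Replicate 2 (red squares) is the lowest for all 10 genes, and its Slc1a2 value of 35.0 CPM is the farthest from the line.

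The members were set beside the rest of the pathway. Of 10 genes for Wnt and R-spondin ligands and their secretion, 8 were tested. Of all genes tested, 21.9% were called at 48 in young mice and 24.1% at 48 in old mice. At 48 in young mice 2 rose and 0 fell: Wnt9b, a ligand of the central vein endothelium, from 2.41 ± 0.64 to 6.29 ± 0.80 CPM (1.39 ± 0.40, adjusted p = 0.0119 in edgeR) and Wnt5a, a ligand known for signalling without beta-catenin, by 1.35 ± 0.38 (adjusted p = 0.0108 in edgeR). At 48 in old mice 2 rose, Wnt5a by 1.54 ± 0.36 and Rspo3, the R-spondin of the central vein, by 0.75 ± 0.26 (edgeR adjusted p = 0.00279 and 0.0331). Without old 48 replicate 2 the Rspo3 difference was 0.67 and was not called (edgeR adjusted p = 0.101). Wnt5a was also higher at 72 in young mice (1.64 ± 0.38) and at 72 and 96 in old mice (1.14 ± 0.37 and 1.48 ± 0.37).

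The receptors that were called moved in both directions, with 12 of 14 tested. At 48 in young mice 1 rose and 3 fell, against 21.9% of all genes called. At 48 in old mice 2 rose and 4 fell, against 24.1% of all genes. Fzd8, a Frizzled receptor, stood at 69.9, 145 and 97.3 CPM before and at 17.2, 31.3 and 20.2 at 48 in young mice, and fell by 2.19 ± 0.38 on the log2 scale (adjusted p = 0.000119, edgeR). In old mice at 48 it fell by 1.49 ± 0.38 (edgeR adjusted p = 0.00545). The co-receptor Lrp5 rose at 48 in both ages, by 0.48 ± 0.17 in young and 1.00 ± 0.17 in old mice. The call for Ror1 in old mice at 48 came from a single library, with 45.0 CPM in replicate 2 against 13.8 and 9.82, and without that library the difference was 0.21 (edgeR adjusted p = 0.55). Averaged over time points, Lrp5 was higher in old mice (0.24 ± 0.07), and Fzd8 (-0.65 ± 0.15) and Lgr4, an R-spondin receptor (-0.28 ± 0.08), were lower. In that comparison 5.98% of all genes were called.

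Of 13 listed Wnt inhibitors, which include the co-repressor Tle3 beside secreted and membrane proteins, 7 were tested. At 72 in young mice 2 rose and 0 fell, against 17.4% of all genes called. They were Dkk3, by 1.47 ± 0.46, and Tle3, a co-repressor that binds TCF factors, by 0.95 ± 0.28 (edgeR adjusted p = 0.0264 and 0.0168). At 48 in old mice 0 rose and 1 fell, against 24.1% of all genes called. It was Nkd1, a feedback inhibitor, at -0.80 ± 0.28 (edgeR adjusted p = 0.0356). Its call was lost without old 48 replicate 2 although the difference was no smaller (-0.87, edgeR adjusted p = 0.0596). Dkk3 was higher in old mice averaged over time points (1.08 ± 0.18, edgeR adjusted p = 0.000385).

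In the beta-catenin list, 18 of 19 genes were tested. At 48 in young mice 1 rose and 4 fell, against 21.9% of all genes called. At 48 in old mice 1 rose and 0 fell, against 24.1% of all genes. The riser was Tcf7, a TCF factor, in both ages, from 6.45, 6.71 and 9.20 CPM to 16.2, 15.8 and 18.2 in young mice (1.17 ± 0.29, edgeR adjusted p = 0.00385) and by 1.21 ± 0.29 in old mice. Among those that fell in young mice were Tnks, a tankyrase that marks axin for degradation (-0.69 ± 0.14), and Bcl9, a co-activator of beta-catenin (-0.71 ± 0.21). Of 6 tested targets linked to growth, 1 rose and 1 fell at 48 in young mice: Birc5, a gene of dividing cells, rose by 6.09 ± 0.85 and Jun fell by 2.31 ± 0.48 (edgeR adjusted p = 1.12e-05 and 0.00089).

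Other zonated genes gave a scale for the members. Of 18 further pericentral genes, 0 rose and 2 fell at 48 in young mice, against 21.9% of all genes called. The list median was -0.26 beside -0.14 for the members and -0.01 for all genes tested. The 2 that fell were Cyp27a1, a sterol hydroxylase (-1.50 ± 0.35), and Cyp2e1, an ethanol-oxidising cytochrome (-1.14 ± 0.35). At 48 in old mice 2 rose and 5 fell, against 24.1% of all genes called. The list median there was -0.56 beside -0.02 for the members. Cyp1a2, a cytochrome of drug metabolism, stood at 411, 732 and 756 CPM before and at 22.5, 30.2 and 110 at 48 in old mice, and fell by 3.54 ± 0.59 on the log2 scale (edgeR adjusted p = 0.000164) with all 3 libraries below those from before, whereas Glul was at 1360, 296 and 1200 CPM there. In young mice at 48 Cyp1a2 was at 665, 677 and 613 CPM, and it was lower in old than young mice at that time (-3.58 ± 0.59, edgeR adjusted p = 0.000465). Without old 48 replicate 2, 4 genes of the list rose and 3 fell at 48 in old mice. Averaged over time points, 0 of the 18 were higher and 4 lower in old mice, against 5.98% of all genes called. Without that library 1 was higher and 5 were lower.

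Of 18 periportal genes 17 were tested. At 48, 0 rose and 4 fell in young mice, with a median of -0.91, and 0 rose and 11 fell in old mice, with a median of -1.47. The shares of all genes called were 21.9% at 48 in young and 24.1% at 48 in old mice. Without old 48 replicate 2, 8 fell. The genes with the largest decrease in old mice were Etnppl, a phospholyase (-4.61 ± 0.85), and Cyp2f2, a cytochrome of periportal hepatocytes (-2.73 ± 0.52), with edgeR adjusted p-values of 0.000467 and 0.000528. All comparisons with before share the same 3 control libraries within an age.

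**Figure D4:**
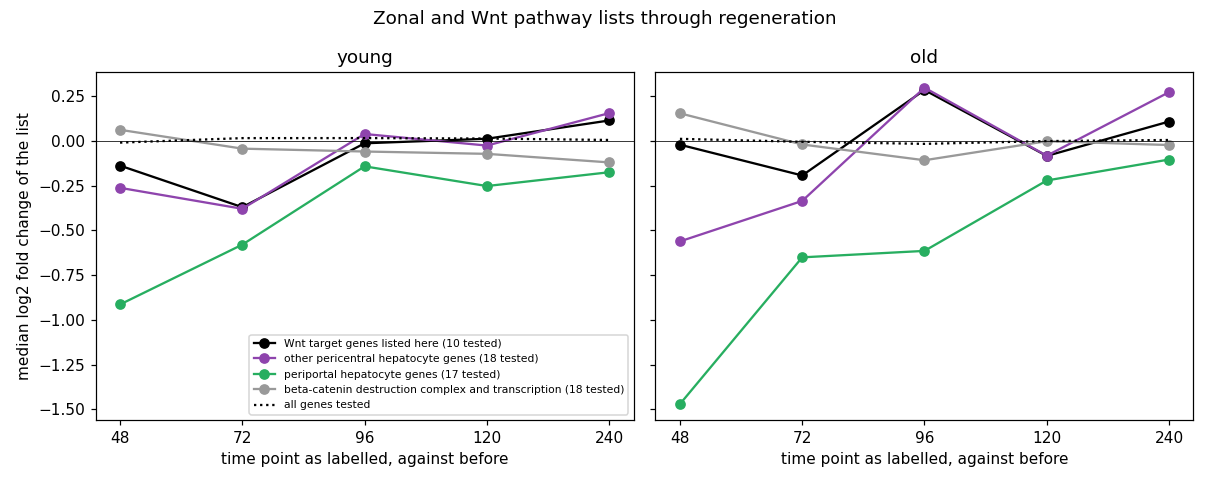
Median log2 fold change against before of the 10 genes (black), the other pericentral genes (purple), the periportal genes (green), the beta-catenin list (grey) and all genes tested (dotted), by time point as labelled, in young (left) and old (right) mice. The periportal median is the lowest of the lines at 48, at -0.91 in young and -1.47 in old mice, where the 10 genes are at -0.14 and -0.02.

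For the 4 members whose group means of log2(CPM + 1) had the widest range (Slc1a2, Glul, Lect2 and Rhbg), the genes with the most similar pattern over the 12 groups were sought by the root mean square difference between centred group means of log2(CPM + 1). The nearest to Slc1a2 were Ces3a (0.231), Cyp2c44 (0.292) and Tmem14a (0.297), and the nearest other member was Glul at 0.469. For Glul they were Abcc3 (0.17), Apoa2 (0.172) and Cyp51 (0.175), and the nearest member was Oat at 0.323. Lect2 had Elp6 (0.2), Metrn (0.205) and Tead2 (0.217), and Rhbg had Ces2c (0.213), Tmem205 (0.239) and Fbxo7 (0.249), with Lgr5 (0.319) and Rnf43 (0.364) as the nearest members. Several of the genes named had low median levels, which limits the precision of their patterns. These were 1.88 CPM for Tead2, 2.69 for Tmem14a, 3.91 for Elp6, 4.78 for Ces2c and 4.82 for Metrn. The old means at 48 of these 4 members include replicate 2, the lowest library of that group for each of them. For Slc1a2 it stood at 35.0 CPM beside 458 and 305. The likeness was not computed without that library. Group means of the same 36 libraries enter both sides of each such value, so it describes a likeness of pattern only.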

How the data were processed

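Total RNA of mouse liver, depleted of ribosomal RNA, was sequenced in 36 libraries. The authors deposited 1 table of whole-number counts per gene symbol for each library. Per the submitters' processing notes, STAR 2.7.5b and featureCounts were among the tools and GRCm38 among the builds. Strand and annotation are not given in the sources used here. Spike-in RNA is described per the labels' protocols, and 0 ERCC rows were in the tables, so changes in total RNA per cell cannot be seen.

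Counts were fitted with edgeR 4.0.16 in R 4.3.3: TMM scaling, filterByExpr on the 12 groups (13436 genes), 1 mean per group, robust quasi-likelihood F tests over all 36 libraries and Benjamini-Hochberg adjustment over all genes tested in each of 23 comparisons. DESeq2 1.42.0 was an alternative. The test was checked on simulated counts. Replicate numbers were taken from the titles, and the fits do not pair them. The members and lists were chosen with earlier results of these data known. From each other list a comparison could name at most 2 called genes that rose and 2 that fell, those with the largest changes, and the 3 genes most like a member were named for 4 members. Alternatives were other scalings, no filter on low counts, DESeq2, a replicate block, fits of only the groups compared, Y-linked transcripts as a covariate, only the 24 libraries without them, and each library left out. In all 3 were added after seeing the data: no robust estimation, without the 2 libraries with the fewest symbols at 0, and list counts without old 48 replicate 2.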

Additional observations from a re-analysis of the deposited data

How the results depend on the processing

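Counts of called members were recomputed for 23 comparisons under 46 alternatives, and 1025 of 1058 stayed within 1.5 times the reported count. The reported count was 0 except at 72 in young and at 48 and 96 in old mice. Most of these recounts therefore set 0 beside 0 and say little about how firm the calls are. With only the groups compared in the fit, 3 members were called at 48 in young mice, and 0 at 72 in young and at 48 and 96 in old mice. With no filter on low counts 0 were called at 72 in young and at 48 and 96 in old mice. With only the libraries without Y-linked transcripts 2 were called at 72 in young mice, 0 at 96 in old mice, and 1 between the ages at 48, which was Oat (-1.22, edgeR adjusted p = 0.0396). Without the 2 libraries with the fewest symbols at 0, an alternative chosen after seeing the data, 0 were called at 72 in young and 96 in old mice. DESeq2 called 1, Slc1a2, in the averaged age comparison. Leaving out each library in turn gave 0 to 2 at 72 in young mice, and 0 to 1 each at 48, 96 and 240 in old mice, between the ages at 48 and averaged. The Oat call between the ages at 48 also appeared without old 48 replicate 1 (-1.30, edgeR adjusted p = 0.0176). No call reversed: the log2 differences ran from -1.99 to -0.94 for Glul, from -1.35 to -0.65 for Rnf43 and from 0.98 to 1.52 for Lect2, and the calls were lost in 7, 6 and 9 of the 46 alternatives, with adjusted p up to 0.165, 0.206 and 0.209.

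The titles do not say that equal replicate numbers mark a shared animal or batch, so the numbers were not taken as pairs. Deviations of samples with the same number within an age had a mean correlation of 0.0582 (from -0.378 to 0.578), beside -0.0246 for samples with different numbers. A mean over many pairs cannot show whether some of them shared a batch. A replicate block nested in age gave 1 call each at 72 in young and at 48 and 96 in old mice, as without it, and 0 in the other comparisons. The cause of the calls gained and lost was not tested. The common biological coefficient of variation was 24.7% with 3 libraries a group, and Rhbg, at 3 to 50 counts, is also limited by depth.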
